A study of Rattus norvegicus with 9 samples.

Results

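The cell cycle and mitosis genes described here are 44 rat genes that act in DNA replication, in the cyclin and kinase system, and in mitosis. A gene was found on the array by its name, and where several probes carry the name the brightest over the 9 arrays stands for it. Of the 44 genes, 41 had a probe, 40 had a probe that was tested, and the array holds 30367 probes in all. No probe carries the name Mki67, Ect2, or Anln. Neither probe of Nek2 was above background on all 3 arrays of a group, and Nek2 was left out of the tests. Total RNA came from brain, by the methods the infarcted hemisphere, of male Sprague Dawley rats at day 14, with 3 arrays in each of 3 groups. Sham rats were operated on without occlusion and received the solvent. I/R rats had the middle cerebral artery occluded for 2 h and then reperfused. DHI rats had the same occlusion and received Danhong injection, a preparation made from Danshen and Honghua, by tail vein every day for 14 days. The dose of the array rats is given in grams per kilogram in one passage of the methods and in milliliters per kilogram in another, and is not printed here. A hemisphere holds infarcted and spared tissue together, so that more cells of a type and more RNA per cell cannot be told apart.

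Cells copy their DNA in S phase and divide it in mitosis. Passage through the cycle is driven by cyclin-dependent kinases, which are active only with a cyclin bound, and each cyclin is made for part of the cycle and then destroyed. Mature neurons have left the cycle, whereas microglia, astrocytes, oligodendrocyte precursors, endothelial cells, fibroblasts, and infiltrating leukocytes can divide in injured brain. Many genes of the late cycle are held down outside it by the DREAM complex, which binds a promoter element called the cell cycle homology region, and are turned on by B-MYB, FOXM1, and NF-Y. Genes of DNA synthesis are turned on by E2F factors.

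The promoters of the 6 genes of smallest p in I/R versus Sham that have a window in the RefSeq promoter table are shown because these genes led the comparison by p, Bub1b among them although its Sham signal was at background. The table gives 1 window for each of 27457 genes, and 35 of the 44 genes matched. Not matched were Ccna2, Ccnd1, Aurkb, Mcm4, Rrm2, Tpx2, Ube2c, Racgap1, and Pbk. Each line holds the 250 bases before the transcription start, 5′ to 3′ on the strand of the gene, from the GRCr8 build. Bub1b lies at chr3:126016817-126017066 on the plus strand, Ccnb2 at chr8:79981659-79981908 on the minus strand, Melk at chr5:63335901-63336150 on the plus strand, Cdk1 at chr20:19265043-19265292 on the plus strand, Cdca3 at chr4:159320953-159321202 on the plus strand, and Nusap1 at chr3:127057045-127057294 on the plus strand. Capitals mark the letters searched on both strands, which were CCAAT (the NF-Y motif, read as ATTGG on the other strand), TTTGAA or TTCGAA (the cell cycle homology region), and, as 3 forms of the E2F motif, TTGGCGC and its variant TTCGCGC and its further variant TTCCCGC. None of these words contains another.
Bub1b: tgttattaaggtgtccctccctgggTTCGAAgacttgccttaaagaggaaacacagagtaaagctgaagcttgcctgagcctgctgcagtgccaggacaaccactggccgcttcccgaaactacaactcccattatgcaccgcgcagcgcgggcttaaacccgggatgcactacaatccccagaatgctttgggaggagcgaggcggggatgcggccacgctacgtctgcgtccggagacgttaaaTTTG
Ccnb2: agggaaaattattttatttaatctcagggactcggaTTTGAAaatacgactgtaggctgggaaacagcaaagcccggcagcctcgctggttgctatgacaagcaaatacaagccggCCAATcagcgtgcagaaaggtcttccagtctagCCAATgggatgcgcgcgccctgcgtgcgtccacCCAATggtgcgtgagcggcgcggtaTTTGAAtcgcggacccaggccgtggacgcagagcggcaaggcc
Melk: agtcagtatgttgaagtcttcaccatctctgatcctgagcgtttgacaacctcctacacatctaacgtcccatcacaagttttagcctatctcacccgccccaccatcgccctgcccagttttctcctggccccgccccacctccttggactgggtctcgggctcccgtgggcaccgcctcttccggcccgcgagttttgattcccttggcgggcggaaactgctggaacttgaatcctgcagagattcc
Cdk1: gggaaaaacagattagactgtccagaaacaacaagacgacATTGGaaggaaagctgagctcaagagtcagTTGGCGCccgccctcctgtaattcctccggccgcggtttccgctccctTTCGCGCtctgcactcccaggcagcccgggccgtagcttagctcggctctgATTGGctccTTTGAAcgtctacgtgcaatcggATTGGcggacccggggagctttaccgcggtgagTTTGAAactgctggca
Cdca3: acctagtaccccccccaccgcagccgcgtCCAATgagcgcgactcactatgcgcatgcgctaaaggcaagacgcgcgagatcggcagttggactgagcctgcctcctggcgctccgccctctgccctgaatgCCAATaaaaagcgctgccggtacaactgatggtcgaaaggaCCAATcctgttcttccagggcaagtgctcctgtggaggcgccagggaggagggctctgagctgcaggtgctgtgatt
Nusap1: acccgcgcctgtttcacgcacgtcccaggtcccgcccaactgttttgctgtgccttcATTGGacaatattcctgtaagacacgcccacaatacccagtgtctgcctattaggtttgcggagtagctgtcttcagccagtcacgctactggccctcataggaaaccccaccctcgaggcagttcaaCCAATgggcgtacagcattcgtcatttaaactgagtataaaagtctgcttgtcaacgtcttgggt

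In Ccnb2, CCAAT began at positions -134, -101, and -68, where -1 is the base before the start, and TTTGAA at -214 and -43. Cdk1 held ATTGG at -210, -81, and -49, TTTGAA at -72 and -16, and the E2F letters at -180 and -132. Cdca3 held CCAAT at -221, -118, and -77, and Nusap1 held ATTGG at -193 and CCAAT at -65. Bub1b held TTCGAA at -225 and a TTTGAA that began at -4 and ran past the start, so that its last letters are not shown. Melk held none of the letters in this window. Over the 300 bases from 250 before to 50 after the start, CCAAT was found in 25 of the 35 windows of the cell cycle and mitosis genes (71.4%) and in 37.7% of all windows. The cell cycle homology region was found in 18 (51.4%, against 19.5% of all), the E2F letters in 12 (34.3%, against 7.97%), and CCAAT together with the homology region in 15 (42.9%, against 7.83%). Ccne1, Bub1, Aurka, Tk1, Kif2c, and Melk held none of the 3 motifs. A match of letters is a description of the window, and binding was not measured.

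Values are given as the scaled log2 signal, which is the log2 of the probe intensity minus the 75th percentile of its array, so that 0 is the level of the 75th percentile. The 75th percentile ranged from 2569.67 to 2745.34 intensity units in Sham, from 2628.71 to 3464.38 in I/R, and from 1816.3 to 2785.07 in DHI, and per array 75.2% to 78.9% of the probes stood well above background. Slide 1 held the Sham and I/R arrays, and slide 2, scanned on its own, held the DHI arrays. An effect of DHI and an effect of slide or scan cannot be told apart. All 6 markers of neurons, of oligodendrocytes, and of astrocytes were above background on all 9 arrays. A gene is called here at the thresholds of the methods (p under 0.05 and FC over 1.5) with limma, in 1 model over the 9 arrays, and the Benjamini-Hochberg adjusted p over 23747 probes is given beside it. Each p rests on 1 spread per gene that is pooled over the 3 groups, so that the 3 comparisons share 1 SE (0.91 for Top2a). The groups differed in spread, with a median SD over the genes of 0.16 (Sham), 0.55 (I/R), and 1.12 (DHI). The tight Sham arrays thus enter the p of DHI versus I/R, and the wide DHI arrays enter that of I/R versus Sham. With 3 arrays per group, precision is limited.

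In I/R, 35 of the 40 genes tested were higher than in Sham and 1, Ccne1, was lower. Uhrf1, Bub1b, Aurkb, Pbk, and Kif2c were above background on no Sham array and entered the test through the I/R arrays, where they were high. Among the 35 genes above background on all 9 arrays, 30 were higher and 1 was lower, with a median log2 fold change of 2.36. Of all probes tested, 20.8% were called higher and 22.3% lower in that comparison. The median log2 fold change of the 40 genes was 2.46 (5.5-fold), against -0.10 over all probes tested. A total of 25 genes rose by more than 4-fold, and the smallest rise was 1.58-fold (Rrm1). The not called genes had log2 fold changes of -0.21 to 0.47. The 3 I/R arrays lay above the 3 Sham arrays for 37 genes and below them for Ccne1. Over all probes, 26.7% lay above without overlap. With the adjusted p, 32 genes were higher and 1 lower, where 32.4% of all probes passed in either direction. The adjusted p of these 33 genes ran from 0.0396 to 0.0435, just under the threshold, and 0 genes passed it without any 1 of the Sham arrays, without I/R 1 or I/R 2, or without DHI 3, whereas 33 to 37 genes were called by unadjusted p without any single array. The methods' t-test called 35 genes. For the counts without an array and by the t-test, the share of all probes is not given.

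**Figure D1:**
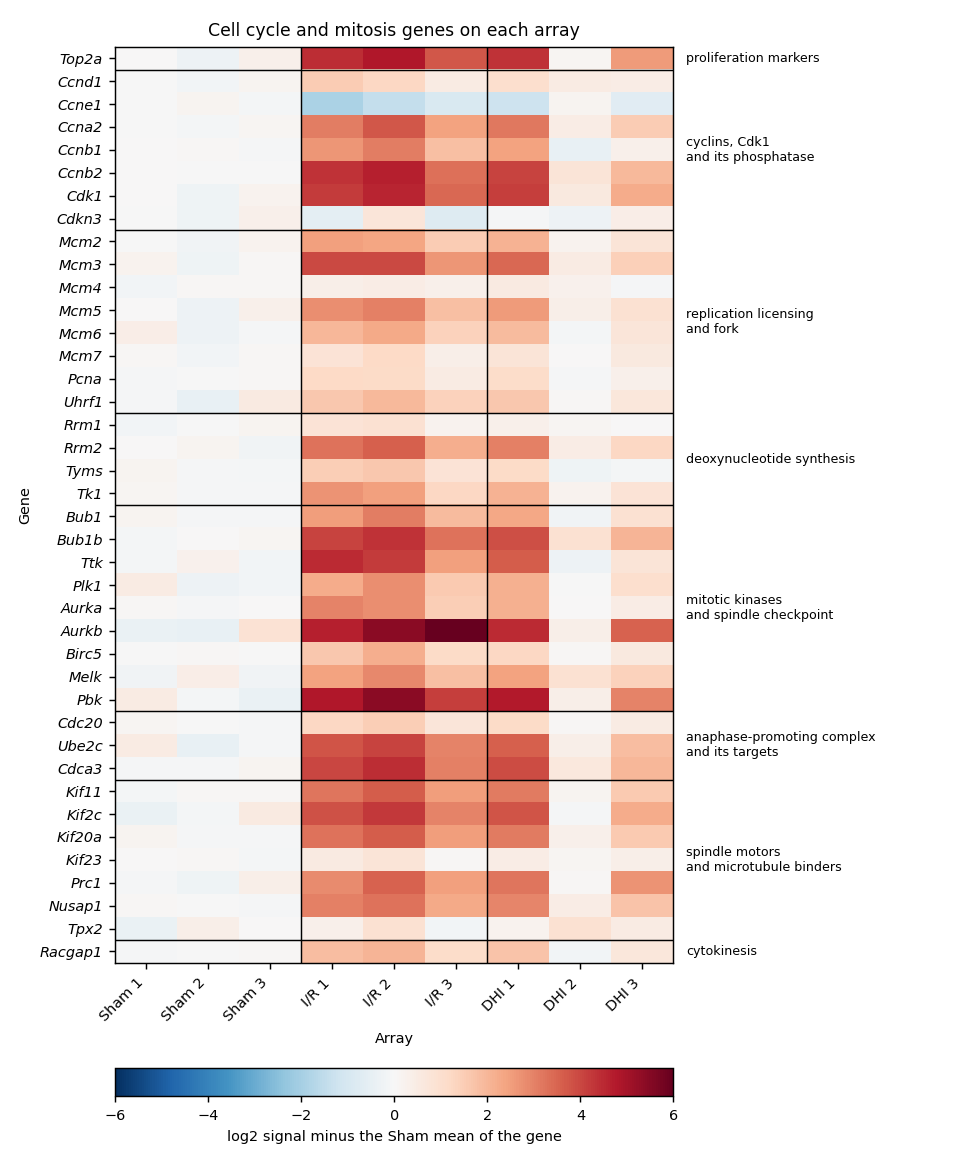
Scaled log2 signal of the 40 genes tested (rows, grouped by role) on each of the 9 arrays (columns), as the difference from the Sham mean of the gene (color, log2 units). The 3 I/R arrays and DHI 1 are red for most genes, with medians of 1.80 to 2.96 in I/R and 2.37 on DHI 1, and DHI 2 is near the Sham arrays with a median of 0.17.

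Of the proliferation markers, Top2a, which untangles DNA for chromosome separation, had scaled log2 signals of -6.73, -7.04 and -6.45 on the Sham arrays, -2.29, -1.94 and -3.0 on the I/R arrays, and -2.39, -6.62 and -4.17 on the DHI arrays. Every I/R array lay above every Sham array, and in DHI the lowest array lay among the Sham arrays and the highest among the I/R arrays. Its mean was -6.74 ± 0.30 in Sham (SD, 3 arrays) and -2.41 ± 0.54 in I/R, a rise of 4.33 ± 0.91 (SE) on the log2 scale or 20.1-fold (adjusted p = 0.0396, limma). In DHI the mean was -4.39 ± 2.12, with a log2 fold change of -1.98 against I/R (adjusted p = 0.203). Its probe lies at chr10:87771459-87771518 on the rn4 build, which the files use for all probes. Mki67, which encodes the Ki-67 antigen and is the other marker of this group, was not measured by name.

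Of the cyclins, Cdk1, and the phosphatase Cdkn3, 5 rose in I/R, 1 fell, and 1 was not called. Ccnb2 encodes a B-type cyclin of mitosis (probe at chr8:74896165-74896224). Its scaled log2 signals were -7.38, -7.44 and -7.46 on the Sham arrays, -3.10, -2.78 and -4.13 on the I/R arrays, and -3.39, -6.65 and -5.47 on the DHI arrays. The rise in I/R was 4.09 ± 0.74 on the log2 scale (17.1-fold, from a mean of -7.43 to -3.33, adjusted p = 0.0396). Cdk1, the kinase that drives entry into mitosis (probe at chr20:20043755-20043814), had signals of -4.22, -4.5 and -4.02 on the Sham arrays, -0.064, 0.31 and -0.81 on the I/R arrays, and -0.11, -3.66 and -2.0 on the DHI arrays. Its mean went from -4.25 in Sham to -0.19 in I/R, a rise of 4.06 ± 0.78 (16.7-fold, adjusted p = 0.0396). Ccna2, the cyclin of S and G2 phase (probe at chr2:123062781-123062840), had signals of -5.47, -5.59 and -5.34 on the Sham arrays, -2.39, -1.76 and -3.03 on the I/R arrays, and -2.30, -5.03 and -3.94 on the DHI arrays. It rose by 3.07 ± 0.63 (8.40-fold, means -5.47 and -2.40, adjusted p = 0.0396). For these 3 genes DHI 1 lay within the I/R range, and DHI 2 and DHI 3 lay between the Sham and the I/R arrays.

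Ccnb1, the other B-type cyclin, had signals of -5.36, -5.31 and -5.47 on the Sham arrays, -2.74, -2.30 and -3.57 on the I/R arrays, and -2.98, -5.82 and -5.07 on the DHI arrays and rose 5.68-fold in I/R. On DHI 2 it was below all Sham arrays. Ccnd1, the cyclin that starts G1 progress, had signals of -2.01, -2.14 and -1.83 on the Sham arrays, -0.48, -0.75 and -1.49 on the I/R arrays, and -0.97, -1.52 and -1.55 on the DHI arrays and rose 2.13-fold, and all 3 DHI arrays lay above the Sham arrays. Ccne1 moved the other way. This cyclin, which takes cells into S phase, had signals of -0.067, 0.10 and -0.19 on the Sham arrays, -1.94, -1.47 and -0.98 on the I/R arrays, and -1.30, 0.10 and -0.72 on the DHI arrays. It fell by 1.41 ± 0.37 in I/R (2.67-fold lower, adjusted p = 0.0399), and the I/R arrays lay below all Sham arrays. Cdkn3, a phosphatase that acts on cyclin-dependent kinases, was not called, with a log2 fold change of -0.21 (SE 0.40, adjusted p = 0.693) and overlapping groups.

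**Figure D2:**
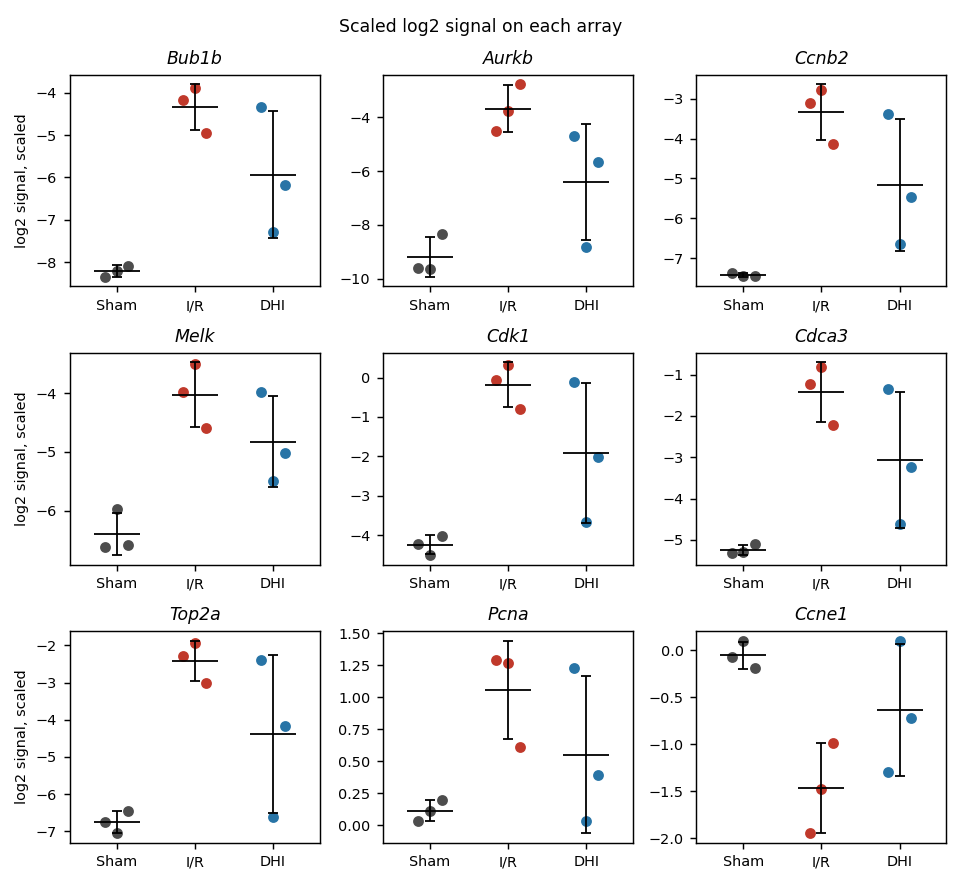
Scaled log2 signal (y axis) of 9 genes on the 3 Sham, 3 I/R, and 3 DHI arrays (x axis), each point 1 array in the order 1, 2, 3 from left to right, with the mean (wide line) and SD (bars). The Sham and I/R points do not overlap in any of the 9 panels, Ccne1 is lower in I/R, and the SD is wider in DHI than in I/R for each of the 9 genes.

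Genes of replication licensing and of the replication fork rose in I/R for 7 of 8, of which Uhrf1 was above background on no Sham array. The MCM proteins 2 to 7 form the helicase that is loaded at origins. Mcm3 (probe at chr9:19536947-19537006) had signals of -2.99, -3.45 and -3.12 on the Sham arrays, 0.79, 0.80 and -0.55 on the I/R arrays, and 0.24, -2.71 and -1.75 on the DHI arrays, and rose by 3.53 ± 0.71 (11.5-fold, means -3.18 and 0.34, adjusted p = 0.0396). Mcm5 (probe at chr19:13998935-13998994) had signals of -6.34, -6.67 and -6.08 on the Sham arrays, -3.56, -3.33 and -4.55 on the I/R arrays, and -3.82, -5.99 and -5.43 on the DHI arrays, and rose by 2.55 ± 0.56 (5.85-fold, means -6.36 and -3.81, adjusted p = 0.0396). For both, DHI 2 and DHI 3 lay above the highest Sham array and below the lowest I/R array. Mcm2 (probe at chr4:122978031-122978090) had signals of -3.74, -3.93 and -3.49 on the Sham arrays, -1.25, -1.35 and -2.21 on the I/R arrays, and -1.63, -3.52 and -2.95 on the DHI arrays, and rose by 2.11 ± 0.47 (4.32-fold, means -3.72 and -1.61, adjusted p = 0.0396). Its value on DHI 2 lay within the Sham range.

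Mcm6 had signals of -4.60, -5.28 and -5.08 on the Sham arrays, -2.99, -2.70 and -3.59 on the I/R arrays, and -3.10, -5.09 and -4.26 on the DHI arrays and rose 3.71-fold. Mcm7 had signals of 0.080, -0.17 and 0.080 on the Sham arrays, 0.82, 1.18 and 0.32 on the I/R arrays, and 0.77, -0.00058 and 0.60 on the DHI arrays and rose 1.72-fold (adjusted p = 0.0588, limma, over the threshold). Both were lowest in DHI on DHI 2, where they lay within the Sham range. Mcm4 was not called, with a log2 fold change of 0.37 (SE 0.18, adjusted p = 0.124), although the I/R arrays lay above the Sham arrays, so that the 6 subunits ran from 1.30-fold to 11.5-fold. Pcna, the sliding clamp of the fork, had signals of 0.035, 0.11 and 0.20 on the Sham arrays, 1.29, 1.27 and 0.61 on the I/R arrays, and 1.23, 0.031 and 0.40 on the DHI arrays and rose 1.92-fold (adjusted p = 0.0534, limma). Its I/R arrays lay above all Sham arrays, and its adjusted p missed the threshold. Uhrf1, which carries DNA methylation through replication, had signals of -8.63, -9.01 and -7.98 on the Sham arrays, -6.90, -6.61 and -7.15 on the I/R arrays, and -6.93, -8.45 and -7.84 on the DHI arrays. It was above background on no Sham array, 3 I/R arrays, and 1 DHI array. Its rise in I/R was at least 3.04-fold, a bound taken against the lowest signal well above background on each Sham array or the signal of the probe itself where that was higher.

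All 4 genes of deoxynucleotide synthesis rose in I/R, by a median of 1.72 on the log2 scale. Rrm2, the subunit of ribonucleotide reductase made in S phase (probe at chr6:42359210-42359269), had signals of -2.41, -2.29 and -2.64 on the Sham arrays, 0.82, 1.13 and -0.28 on the I/R arrays, and 0.58, -2.02 and -1.19 on the DHI arrays. It rose by 3.01 ± 0.64 (8.03-fold, means -2.45 and 0.56, adjusted p = 0.0396). Tk1, the thymidine kinase of dividing cells, had signals of -2.69, -2.92 and -2.88 on the Sham arrays, -0.13, -0.36 and -1.58 on the I/R arrays, and -0.76, -2.62 and -2.0 on the DHI arrays, and rose by 2.14 ± 0.52 (4.4-fold, means -2.83 and -0.69, adjusted p = 0.0396). Both lay above all Sham arrays on all 3 DHI arrays. Tyms, the enzyme that makes thymidylate (probe at chr9:112605733-112605792), had signals of -5.00, -5.25 and -5.31 on the Sham arrays, -3.72, -3.57 and -4.38 on the I/R arrays, and -4.01, -5.46 and -5.32 on the DHI arrays. It rose by 1.29 ± 0.40 (2.45-fold, means -5.19 and -3.89, adjusted p = 0.0435), and it was below all Sham arrays on DHI 2 and DHI 3. Rrm1, the constant subunit of the reductase, had signals of -6.06, -5.91 and -5.70 on the Sham arrays, -5.06, -4.96 and -5.67 on the I/R arrays, and -5.57, -5.79 and -5.87 on the DHI arrays and rose 1.58-fold (adjusted p = 0.0506, limma), and the lowest I/R array was -5.67 against -5.70 on the highest Sham array. The 2 subunits of the same enzyme thus rose by 0.66 and 3.01 on the log2 scale, and their difference was not tested.

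Of the mitotic kinases and spindle checkpoint genes, all 9 tested rose in I/R, and Bub1b, Aurkb, and Pbk of these were above background on no Sham array. Bub1b, a checkpoint protein that holds back anaphase (probe at chr3:105115671-105115730), had signals of -8.35, -8.20 and -8.09 on the Sham arrays, -4.18, -3.89 and -4.94 on the I/R arrays, and -4.33, -7.30 and -6.17 on the DHI arrays. The measured means were -8.21 and -4.34 (adjusted p = 0.0396, limma), the first of them at background. It was above background on no Sham array, 3 I/R arrays, and 2 DHI arrays. Its measured rise was 14.7-fold, taken against Sham readings at background, and is not a bound. Aurkb, the kinase of the chromosomal passenger complex (probe at chr10:55801393-55801534), had signals of -9.59, -9.64 and -8.34 on the Sham arrays, -4.5, -3.78 and -2.76 on the I/R arrays, and -4.70, -8.82 and -5.67 on the DHI arrays. It was not above background on any Sham array and rose at least 31.5-fold in I/R, from measured means of -9.19 and -3.68 (adjusted p = 0.0396, limma), the first of them at background. It was highest on I/R 3, the array that was lowest in I/R for 38 of the 40 genes, and the 3 DHI arrays lay below all I/R arrays. Melk, a kinase of the late cycle (probe at chr5:60847783-60847842), had signals of -6.62, -5.98 and -6.58 on the Sham arrays, -3.99, -3.5 and -4.60 on the I/R arrays, and -3.98, -5.49 and -5.02 on the DHI arrays, and rose by 2.36 ± 0.43 (5.15-fold, means -6.39 and -4.03, adjusted p = 0.0396). All 3 of its DHI arrays lay above all Sham arrays.

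Bub1, the partner kinase of the checkpoint, had signals of -4.90, -5.11 and -5.13 on the Sham arrays, -2.53, -1.96 and -3.13 on the I/R arrays, and -2.70, -5.27 and -4.12 on the DHI arrays and rose 5.68-fold. Ttk, the kinase that starts the checkpoint, had signals of -4.12, -3.78 and -4.17 on the Sham arrays, 0.44, 0.16 and -1.56 on the I/R arrays, and -0.41, -4.33 and -3.26 on the DHI arrays and rose 13.0-fold. Both were below all Sham arrays on DHI 2. Plk1, a kinase of mitotic entry and spindle assembly, had signals of -2.73, -3.56 and -3.41 on the Sham arrays, -1.0, -0.46 and -1.69 on the I/R arrays, and -1.12, -3.26 and -2.21 on the DHI arrays and rose 4.55-fold. Aurka, the kinase of spindle poles, had signals of -2.07, -2.23 and -2.13 on the Sham arrays, 0.82, 0.63 and -0.64 on the I/R arrays, and -0.016, -2.11 and -1.69 on the DHI arrays and rose 5.32-fold. Both lay within the Sham range on DHI 2. Birc5 encodes survivin, the passenger complex member that also blocks cell death. Its signals were -3.46, -3.33 and -3.46 on the Sham arrays, -1.78, -1.22 and -2.27 on the I/R arrays, and -2.18, -3.37 and -2.84 on the DHI arrays, with a 3.16-fold rise. Pbk, a mitotic kinase, had signals of -8.51, -9.13 and -9.39 on the Sham arrays, -4.23, -3.59 and -4.87 on the I/R arrays, and -4.26, -8.67 and -6.04 on the DHI arrays, was not above background on any Sham array and rose at least 22.9-fold in I/R. Both lay within the Sham range on DHI 2 and between the groups on DHI 3. Nek2, a kinase of the centrosome, read -8.54, -8.21 and -9.58 on the Sham arrays, -6.72, -6.87 and -7.52 on the I/R arrays, and -7.92, -7.88 and -7.78 on the DHI arrays with its brighter probe, which was above background on 2 I/R arrays, and was not tested.

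The 3 genes around the anaphase-promoting complex, the ubiquitin ligase that ends mitosis, rose in I/R, by a median of 3.58 on the log2 scale. Cdca3, a protein that the complex destroys (probe at chr4:160956486-160956545), had signals of -5.33, -5.29 and -5.10 on the Sham arrays, -1.22, -0.82 and -2.22 on the I/R arrays, and -1.34, -4.62 and -3.25 on the DHI arrays. It rose by 3.82 ± 0.74 (14.1-fold, means -5.24 and -1.42, adjusted p = 0.0396). Ube2c, the ubiquitin-conjugating enzyme of the complex (probe at chr3:155802226-155802557), had signals of -5.57, -6.52 and -6.13 on the Sham arrays, -2.32, -2.04 and -3.11 on the I/R arrays, and -2.5, -5.72 and -4.24 on the DHI arrays, and rose by 3.58 ± 0.73 (12-fold, means -6.07 and -2.49, adjusted p = 0.0396). On DHI 2, Ube2c lay within the Sham range, whereas Cdca3 lay above it. Cdc20, the activator of the complex (probe at chr5:138913267-138914237), had signals of -2.80, -2.97 and -2.99 on the Sham arrays, -1.67, -1.45 and -2.17 on the I/R arrays, and -1.77, -2.83 and -2.43 on the DHI arrays, and rose by 1.15 ± 0.29 (2.23-fold, means -2.92 and -1.77, adjusted p = 0.0396). The 3 genes had their highest I/R value on I/R 2 and their lowest on I/R 3.

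Of the spindle motors and microtubule binders, 5 of 7 rose in I/R, of which Kif2c was above background on no Sham array. Nusap1, which bundles spindle microtubules (probe at chr3:106164775-106164834), had signals of -5.00, -5.12 and -5.13 on the Sham arrays, -2.07, -1.84 and -2.81 on the I/R arrays, and -2.15, -4.66 and -3.36 on the DHI arrays, and rose by 2.84 ± 0.57 (7.18-fold, means -5.08 and -2.24, adjusted p = 0.0396). Kif20a, a kinesin of the central spindle (probe at chr18:27108170-27108229), had signals of -5.29, -5.49 and -5.51 on the Sham arrays, -2.19, -1.80 and -2.94 on the I/R arrays, and -2.34, -5.12 and -3.86 on the DHI arrays, and rose by 3.12 ± 0.63 (8.7-fold, means -5.43 and -2.31, adjusted p = 0.0396). Kif11, the kinesin that pushes spindle poles apart (probe at chr1:241722721-241722780), had signals of -6.62, -6.45 and -6.44 on the Sham arrays, -3.31, -2.88 and -4.02 on the I/R arrays, and -3.39, -6.33 and -4.94 on the DHI arrays, and rose by 3.10 ± 0.66 (8.58-fold, means -6.50 and -3.40, adjusted p = 0.0396). For all 3, DHI 1 lay within the I/R range and DHI 2 and DHI 3 lay between the groups. Prc1, which cross-links the midzone, had signals of -5.31, -5.51 and -4.90 on the Sham arrays, -2.42, -1.69 and -2.77 on the I/R arrays, and -2.05, -5.17 and -2.53 on the DHI arrays and rose 7.71-fold, and DHI 1 and DHI 3 lay within the I/R range. Kif2c, a kinesin that depolymerizes microtubules at kinetochores, had signals of -9.28, -8.99 and -8.32 on the Sham arrays, -5.03, -4.62 and -5.90 on the I/R arrays, and -5.10, -8.94 and -6.65 on the DHI arrays, was not above background on any Sham array and rose at least 11.0-fold in I/R. Kif23 and Tpx2, a kinesin of cytokinesis and an activator of Aurora A, were not called, with log2 fold changes of 0.47 (SE 0.20, adjusted p = 0.0963) and 0.35 (SE 0.32, adjusted p = 0.394). Kif23 had an unadjusted p under the threshold and a change under 1.5-fold.

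Of the cytokinesis genes, Racgap1, a regulator of the contractile ring, was measured. Its signals were -4.97, -4.93 and -4.82 on the Sham arrays, -3.07, -2.86 and -3.78 on the I/R arrays, and -3.19, -5.08 and -4.25 on the DHI arrays (probe at chr7:138366770-138366829). It rose by 1.67 ± 0.45 in I/R (3.18-fold, means -4.91 and -3.24, adjusted p = 0.0403). On DHI 2 it was below all Sham arrays. Ect2, which activates RhoA at the division plane, and Anln, a scaffold of the ring, had no probe of their name. A second probe was present for 10 of the 41 genes. Both probes were called higher in I/R for 7 genes (Top2a, Ccna2, Mcm2, Mcm3, Rrm2, Kif2c, and Prc1), neither was called for Mcm4, 1 of the pair was tested for Bub1, and neither was tested for Nek2.

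In DHI versus I/R, 12 genes were called lower and 0 higher, against 10.5% and 11.5% of all probes tested. The median log2 fold change was -1.15 (2.21-fold lower), against 0.10 over all probes, and the value of 37 genes was below 0. The 12 called lower were the B-type cyclins Ccnb1 (3.37-fold lower) and Ccnb2 (3.57-fold), the helicase subunits Mcm2 (2.13-fold) and Mcm3 (3.36-fold), the enzyme Tyms (2.06-fold), the checkpoint genes Bub1 (2.81-fold), Bub1b (3.02-fold), and Ttk (5.08-fold), the Aurora kinases Aurka (2.91-fold) and Aurkb (6.57-fold), Birc5 (2.06-fold), and the kinesin Kif20a (2.76-fold). Their SEs were wide, from 0.35 (Birc5) to 1.00 (Aurkb) on the log2 scale. Bub1b and Aurkb were above background on 2 of the 3 DHI arrays, so that their DHI means include a reading at background. Birc5 had the smallest p (adjusted p = 0.196, limma). The adjusted p passed for 0 genes, where 0.00421% of all probes, a single one, passed, and by the methods' t-test 0 genes were called. Without the 5 genes at background in Sham, 10 of 35 were called lower. The 3 DHI arrays lay below the 3 I/R arrays for 1 gene, Aurkb, and without overlap for 4.03% of all probes.

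Of the 28 genes not called in DHI versus I/R, 18 had a p between 0.05 and 0.1, and the log2 fold changes of the 28 ran from -2.09 (Pbk, SE 0.97) to 0.83 (Ccne1, SE 0.37). Cdk1 was at -1.74 ± 0.78 (adjusted p = 0.199) and Pcna at -0.51 ± 0.32 (adjusted p = 0.289). Ccna2 was at -1.36, Ccnd1 at -0.44, Mcm5 at -1.27, Mcm6 at -1.05, Mcm7 at -0.32, and Mcm4 at -0.13. Rrm2 was at -1.43 and Rrm1 at -0.51, the second with an unadjusted p under the threshold and a change under 1.5-fold. Ccne1, Cdkn3 (0.22), and Tpx2 (0.17) were the 3 genes with a value above 0. The sign of Cdkn3, Tpx2, Kif23, Mcm4, Prc1, Rrm1, and Uhrf1 in this comparison turned under at least 1 alternative processing.

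**Figure D3:**
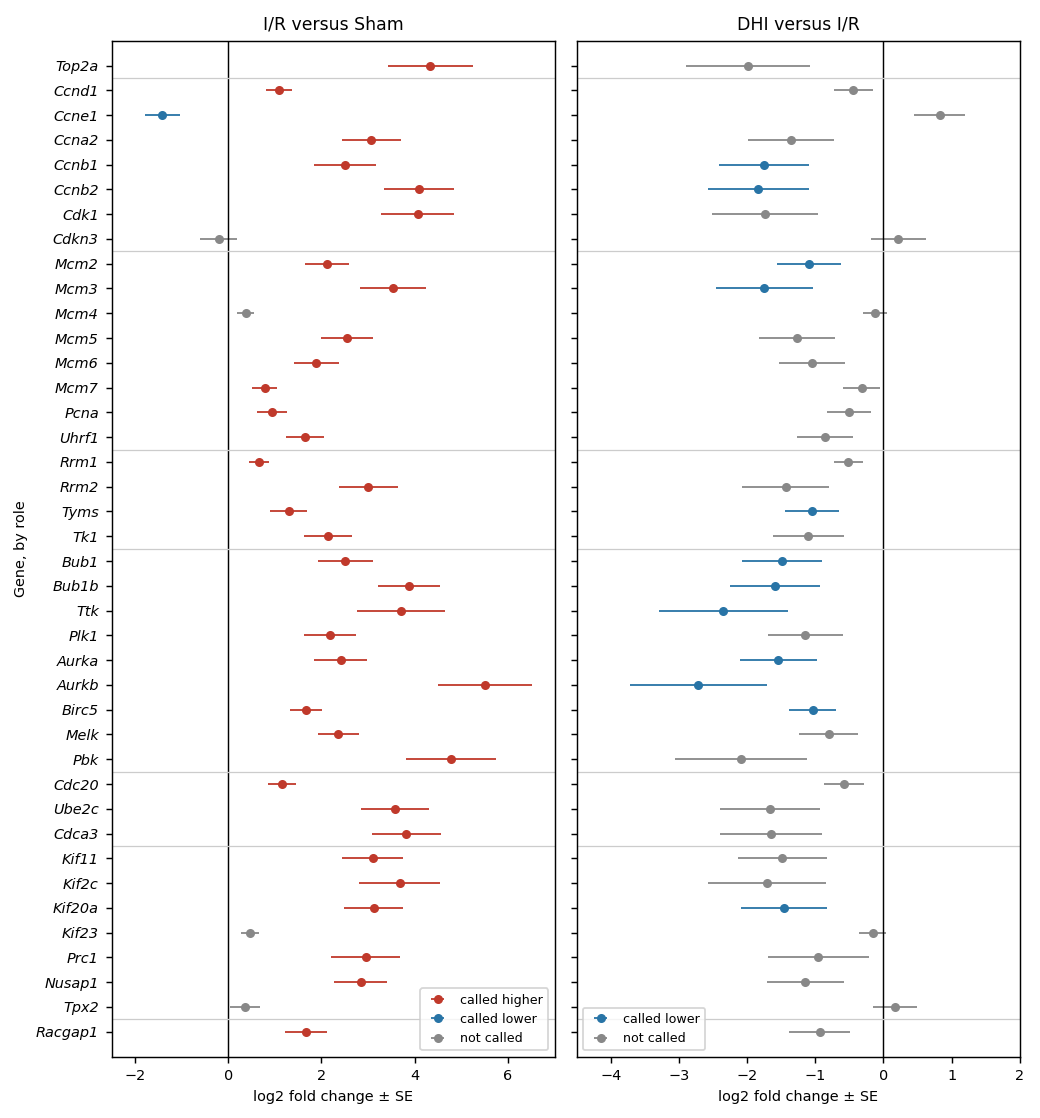
Log2 fold change with its SE (x axis) of the 40 genes tested (y axis, grouped by role) in I/R versus Sham on the left and in DHI versus I/R on the right. Red marks 35 genes called higher, blue those called lower (1 and 12), and gray those not called. For Uhrf1, Bub1b, Aurkb, Pbk, and Kif2c the Sham probe was not above background and the plotted value is the measured difference.

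The 3 DHI arrays differed from each other more than the 3 I/R arrays did for 34 of the 40 genes, and the median SD of a gene was 0.16 for Sham, 0.55 for I/R, and 1.12 for DHI. DHI 1 was the highest DHI array for 37 genes and DHI 2 the lowest for 35. Relative to the Sham mean, the median over the genes was 2.37 on DHI 1, 0.17 on DHI 2, and 0.88 on DHI 3, against 2.67, 2.96, and 1.80 on the 3 I/R arrays. Of the 35 genes higher in I/R, DHI 1 lay within the I/R range for 34, DHI 2 for 0, and DHI 3 for 2. DHI 2 lay within the Sham range for 15 and above it for 14, and DHI 3 lay above the highest Sham array for 33. The count of genes called in DHI versus I/R moved with these arrays. Without DHI 1 it was 33, with 32 past the adjusted p, and without DHI 2 or DHI 3 it was 1 and 2. It was also 5 without Sham 1, Sham 2, or Sham 3, which enter through the shared spread, and 2, 1, and 25 without I/R 1, I/R 2, and I/R 3. The share of all probes called without an array is not given, so these counts cannot be read as particular to the genes. The 75th percentile of the array was 2785.07 on DHI 1, 1816.3 on DHI 2, and 2120.22 on DHI 3, and its part in the result was not tested.

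**Figure D4:**
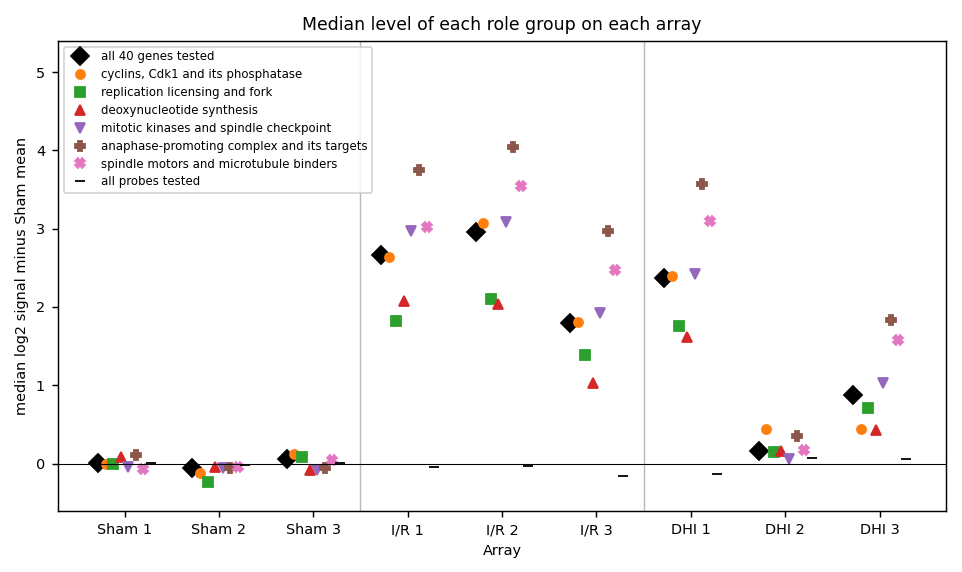
Median over the genes of each role group (symbols) of the scaled log2 signal minus the Sham mean of the gene (y axis, log2 units) on each of the 9 arrays (x axis), with the median over all probes tested as a dash. Of the 6 role groups with more than 1 gene tested, in I/R and on DHI 1 the anaphase-promoting complex group is highest and the replication and deoxynucleotide groups are lowest, and the median over all probes stays between -0.16 and 0.07.

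In DHI versus Sham, which shares its Sham arrays with I/R versus Sham, 16 genes were called higher and 0 lower, against 2.52% and 1.06% of all probes. The 16 were Top2a, Ccna2, Ccnb2, Cdk1, Mcm3, Rrm2, Bub1b, Aurkb, Melk, Pbk, Ube2c, Cdca3, Kif11, Kif20a, Prc1, and Nusap1. Without the 5 genes at background in Sham, 13 of 35 were called higher. Melk had the smallest p (adjusted p = 0.709, limma) and was 2.95-fold higher in DHI, and Cdk1 was 5.0-fold higher. Bub1b was 4.86-fold higher as measured, against Sham readings at background. The adjusted p was at least 0.709 (limma) for all 40 genes, and the methods' t-test called 2. The median log2 fold change was 1.04, against 0.018 over all probes. The DHI arrays lay above all Sham arrays for 15 genes, a count without a share of all probes to read it against. Without DHI 2 the count of genes called was 30, and without DHI 1 or DHI 3 it was 6 and 7. Without Sham 1, Sham 2, or Sham 3 it was 8, 6, and 9. The share of all probes called without an array is not given.

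Markers of some cell types also differed between the groups, in either direction. In I/R, 10 of 11 markers of microglia and macrophages were called higher than in Sham, against 20.8% of all probes. The other, Cx3cr1, was not called, with a log2 fold change of -0.998 (adjusted p = 0.156, limma). Its 3 I/R arrays lay below its 3 Sham arrays. In DHI versus I/R its log2 fold change was 0.896, also not called. The level summed over the 11 markers (75th percentile of the array as 1) was 20.6 to 24.9 in Sham. It was 148 to 375 in I/R and 27.7 to 211 in DHI. On the 3 DHI arrays it was 211, 27.7, and 33.9 in the order 1, 2, 3. In DHI versus I/R, 9 of these 11 markers were called lower, against 10.5% of all probes. Of the 11, 0 passed the adjusted p (lowest 0.196, limma) and 0 were called by the methods' t-test. The DHI and I/R arrays overlapped for each of them. Of 5 markers of pericytes and fibroblasts, 4 were higher in I/R, and the summed level was 2.02 to 3.15 in Sham, 31.5 to 57.3 in I/R, and 46.0, 2.14, and 2.65 on the DHI arrays. Of 5 markers of T cells tested, 3 were higher in I/R (Cd3g, Cd3d, and Cd8a), and Cd3e and Lck were not called. Cd8a was above background on no Sham array and entered the test through the I/R arrays, where it was high. The sums of the T cell markers, which include Cd8a, were 0.16 to 0.19 in Sham, 0.44 to 0.79 in I/R, and 0.18 to 0.59 in DHI. Cd8a had log2 signals of -1.63, -1.08 and -2.71 on the I/R arrays and makes up much of the I/R sums. All 6 neuronal markers were lower in I/R, with sums of 39.3 to 53.5 in Sham, 3.51 to 20.7 in I/R, and 13.4, 47.0, and 32.8 on the DHI arrays. Of the 70 markers, Ms4a1, a B cell marker, was above background on no array, and Eomes had no probe of its name. Microglia and macrophage, pericyte and fibroblast, and neuronal markers were each above background on all 9 arrays. The part of these cell types in the level of the cell cycle and mitosis genes was not tested.

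**Figure D5:**
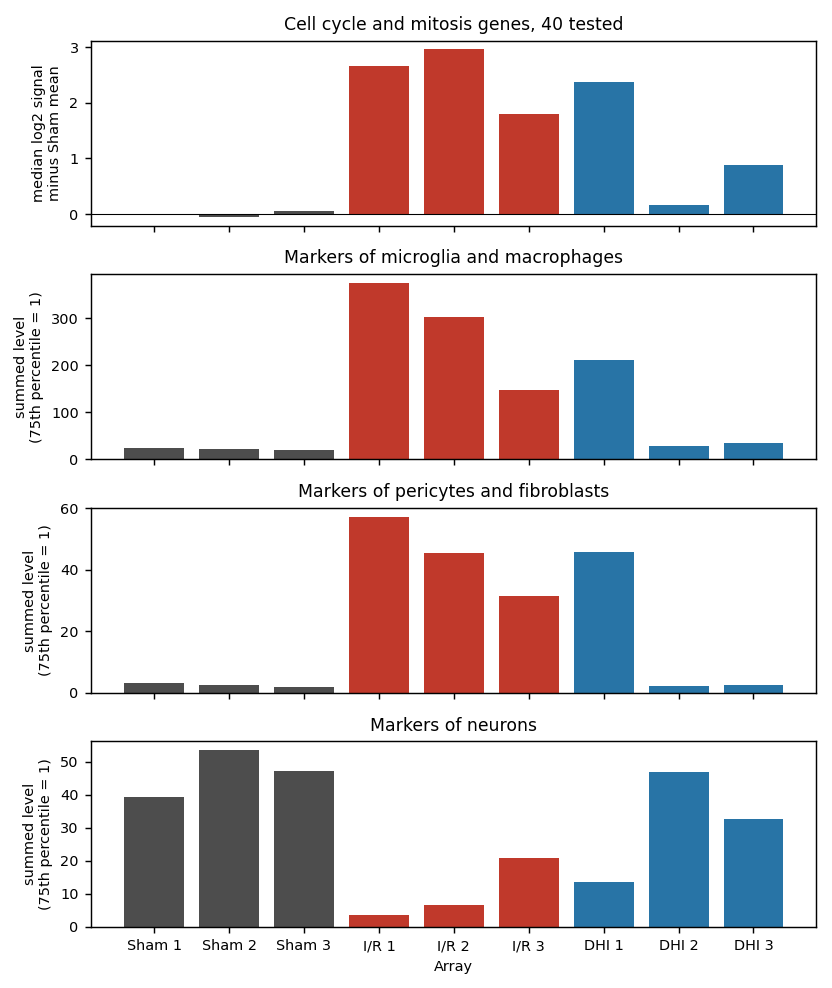
Bars give, for each of the 9 arrays (x axis), the median scaled log2 signal of the 40 genes minus the Sham mean (top, log2 units) and the summed linear level of the markers of microglia and macrophages, of pericytes and fibroblasts, and of neurons (lower panels, 75th percentile of the array as 1). DHI 1 stands near the I/R arrays and DHI 2 near the Sham arrays in each panel, and the neuronal panel runs the other way.

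Markers of other cells that can divide were called in part. Of 6 astrocyte markers, Gfap (12.4-fold), Aqp4 (2.76-fold), and Aldh1l1 (1.64-fold) were higher in I/R and Slc1a2 was lower. Gfap (4.01-fold) and Aqp4 (2.16-fold) were called lower in DHI than in I/R, each with an adjusted p of 0.196 (limma) and overlapping arrays. By the methods' t-test, 0 astrocyte markers were called in that comparison. The summed level was 59.9 to 67.1 in Sham, 80.0 to 112 in I/R, and 60.3 to 85.2 in DHI, and a linear sum is set mostly by the brightest markers of a list. Of 6 markers of oligodendrocyte precursors, Pdgfra (3.57-fold) and Cspg4 (2.28-fold) were higher in I/R, and in DHI versus I/R Pdgfra was lower (2.27-fold) and Olig1 higher. Their sum was 9.76 to 13.1 in Sham, 13.4 to 23.1 in I/R, and 14.6 to 19.7 in DHI. Of 5 markers of neural progenitors and neuroblasts tested, Nes was higher in I/R (3.66-fold) and lower in DHI than in I/R (2.22-fold), and the sums were 7.08 to 7.91 in Sham, 9.42 to 15.1 in I/R, and 7.88 to 11.9 in DHI. Of 6 endothelial markers, Pecam1 and Tek were higher in I/R, with sums of 3.90 to 4.38 in Sham, 4.30 to 6.49 in I/R, and 4.09 to 5.01 in DHI. In DHI versus I/R, 0 of the 65 markers tested over all cell types passed the adjusted p. The part of these cell types in the result was not tested either.

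The genes of the cycle beyond the 44 moved by list. Of 89 such genes in 7 lists, 84 were tested, of which 42 were higher and 4 (4.76%) lower in I/R than in Sham, against 20.8% and 22.3% of all probes. The 42 include Rbl1, Cenpa, Cenpe, and Cenpf, which were above background on no Sham array. Of the cohesin, condensin, and kinetochore genes, 13 of 16 tested were higher, and 3 were not called. The 5 of smallest p were Ndc80 (3.03 ± 0.57), the outer kinetochore subunit, Cenpa, the histone of the centromere, Pttg1 (2.82 ± 0.59), the securin, Cenpf, and Nuf2 (2.30 ± 0.53) (log2 fold change ± SE). Cenpa and Cenpf were above background on none of the Sham arrays, and rose at least 11.6-fold and 16.3-fold in I/R. Smc1a, Smc3, and Rad21, the cohesin ring that also acts outside division, were the 3 not called. Of 23 genes of origin recognition and replication machinery, 12 were higher and 1 lower. Pold1 (1.09 ± 0.24), a DNA polymerase subunit, Gins2 (2.57 ± 0.64) and Gins1 (2.42 ± 0.60), subunits of the replicative helicase, Mcm10 (2.43 ± 0.62), a replication initiation factor, and Cdc45 (1.62 ± 0.42), the helicase partner, had the smallest p.

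Of 17 pocket proteins, E2F factors, and other cell cycle transcription factors tested, 7 were higher and 0 lower. Rbl1, which encodes p107 of the DREAM complex, was above background on none of the Sham arrays and rose at least 8.54-fold, followed by Myc (2.00 ± 0.50), Foxm1 (1.16 ± 0.30), Mybl2 (2.06 ± 0.61), the B-MYB factor, and E2f5 (0.75 ± 0.22). Of 7 inhibitors of cyclin-dependent kinases, 4 were higher, which were Cdkn2c (2.15 ± 0.55), Cdkn2a (0.86 ± 0.23), Cdkn1c (2.64 ± 0.84), and Cdkn2b (2.10 ± 0.70), and Cdkn2d was lower (-1.12 ± 0.37). Cdkn1a, the p21 inhibitor, had a log2 fold change of -0.24. Of 10 other cyclins and kinases, Cdk6 (1.15 ± 0.30), Cdk2 (1.83 ± 0.48), and Cdk4 (1.25 ± 0.35) were higher, while the second E cyclin, Ccne2, was not called (-0.67 ± 0.31, adjusted p = 0.122). Of the growth arrest genes, Gadd45a was higher (1.94 ± 0.53), and Btg2, an antiproliferative gene, was lower (-2.29 ± 0.49). Pkmyt1 (2.01 ± 0.45), a kinase that inhibits Cdk1, and Cdc25a (0.87 ± 0.30), a phosphatase that activates kinases, were higher out of 4 tested.

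Between DHI and I/R, 13 of these 84 genes (15.5%) were lower and 1 was higher, where 10.5% and 11.5% of all probes were, a share of lower genes near that of all probes. The median log2 fold change was -0.44. The lower genes were Ndc80 (-1.70), Smc4 (-1.19), Pttg1 (-1.58), Cenpe (-1.49), Cenpa (-2.18), Rbl1 (-2.13), Rb1 (-0.65), Myc (-1.33), Cdk6 (-0.82), Cdk4 (-0.84), Pkmyt1 (-1.11), and Pole (-0.92), together with the checkpoint gene Mad2l1. The origin subunit Orc6, lower in I/R than in Sham (-0.78), was the higher one (0.62). No gene of the 84 passed the adjusted p in limma, and the methods' t-test called 0. Between DHI and Sham, 5 of the 84 (5.95%) were higher against 2.52% of all probes, all from the kinetochore and condensin list (Ncaph, Cenpf, Cenpa, Nuf2, and Ndc80), and the growth arrest genes Btg2 and Gadd45g were lower.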

How the data were processed

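Brain RNA of 9 rats was hybridised to single-color Agilent arrays, 1 array per rat and 3 rats each in Sham, I/R, and DHI. The deposited intensity values were made by the authors with Agilent Feature Extraction 10.7.1.1, which subtracts background and detrends within the array. A deposited table of log2 values with the same distribution on every array was used as an alternative. No column of values was left unused (0).

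Control spots and outlier spots were left out, log2 of the processed intensity minus the 75th percentile of the array was averaged over the spots of a probe, and the 23747 probes kept were those well above background on every array of some group. Scaling assumes a stable 75th percentile, and a fold change of a dim probe depends on how background is subtracted. limma 3.58.1 in R 4.3.3 fitted 1 model over the 9 arrays. A gene was called at an unadjusted p under 0.05 and FC over 1.5, as in the methods, with Benjamini-Hochberg adjustment over all probes beside it. The methods' t-test was run on the same values. The fit was tested on simulated data in which a gene had the same spread in every group and only I/R was changed. The unequal spreads of the real groups were thus not covered.

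All 44 genes were named, the 3 of smallest p in I/R versus Sham in each role were given with full statistics, and Mki67, Top2a, Cdk1, and Pcna were added where measured. Of the further lists, the 5 called genes of smallest p were named, and Smc1a, Smc3, Rad21, Mad2l1, Ncaph, Gadd45g, Cdkn1a, and Ccne2 were named after their values were seen. The genes and lists were chosen with earlier results of these data known. Promoters came from RefSeq (GRCr8) and were compared with no rn4 coordinate. Alternatives were no scaling, quantile scaling, normexp, the deposited table, other filters, array weights, 2 groups only, a replicate block, and leaving out each array. One gene of the further lists is not reported here.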

Additional observations from a re-analysis of the deposited data

How the results depend on the processing

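Over the 20 alternatives, of which the filter for probes above background on all 9 arrays held no value for Uhrf1, Bub1b, Aurkb, Pbk, and Kif2c, the sign of the change was kept wherever a value was had for the 36 genes called in I/R versus Sham, for the 12 in DHI versus I/R, and for the 16 in DHI versus Sham, while 32, 0, and 1 of them (Melk) were called wherever a value was had. In I/R versus Sham, the adjusted p passed for 0 genes with no scaling and for 0 to 37 when 1 array was left out, and the median log2 fold change was 1.60 after normexp background correction. In DHI versus I/R, 33 genes were called with no scaling, 2 with only those 2 groups in the fit, 34 with array weights (37 past the adjusted p), 0 by the methods' t-test, and 1 to 33 (0 to 32 past the adjusted p) with 1 array left out. In DHI versus Sham, 6 were called with no scaling, 10 with only those 2 groups, 2 by the methods' t-test, 6 to 30 with 1 array left out, and 26 passed the adjusted p with array weights. The causes were not tested. With no scaling, the median over all probes was 0.10 in I/R versus Sham, -0.36 in DHI versus I/R, and -0.25 in DHI versus Sham, and relative to it the medians of the genes were 2.56, -1.25, and 1.02, equal to those with scaling. Within slide 1, with Sham and I/R alone in the fit, 36 genes were called and 35 passed the adjusted p. The share of all probes called under each alternative is not given, so these counts cannot be read as particular to the genes.

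With the replicate number as a block, 36, 17, and 19 genes were called in the 3 comparisons. Samples of the same number share only that number. The correlation of their deviations from the group means ran from -0.34 to 0.48 (9 pairs, median 0.077). For samples of different number it ran from -0.53 to 0.46 (18 pairs, median -0.071). These ranges overlapped, and the numbers were not taken as pairing. The number of arrays, 3 per group, limits precision. For Uhrf1, Bub1b, Aurkb, Pbk, and Kif2c the Sham signal was not above background. A bound is given for Uhrf1, Aurkb, Pbk, and Kif2c, and the measured fold for Bub1b.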

Other observations

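Markers of 2 other sources differed between arrays of the same group. The summed level of 4 red blood cell markers (75th percentile of the array as 1) was 4.62, 38.6, and 19.4 in Sham, 2.82, 3.63, and 4.12 in I/R, and 9.37, 49.97, and 28.8 in DHI. All 4 were called lower in I/R than in Sham and higher in DHI than in I/R, with 0 past the adjusted p in either comparison. The sum was lowest within DHI on DHI 1, the DHI array on which the cell cycle and mitosis genes were highest for 37 of 40. The summed level of the choroid plexus markers was 0.46 to 1.01 in Sham, 1.29, 2.20, and 93.6 in I/R, and 137, 7.50, and 74.3 in DHI. Its high array in I/R was I/R 3, on which 38 of the 40 genes were at their lowest I/R level. Ttr makes up much of the sum on that array (log2 signal 6.53) and was not called in I/R versus Sham. Folr1 was called in that comparison (22.8-fold rise, adjusted p = 0.0419, limma). It read -1.30, -0.76 and -0.27 on the I/R arrays, against -5.92, -5.92 and -4.03 on the Sham arrays. Kcnj13 was not called, although its I/R arrays lay above all Sham arrays, and Kl was not tested. The part of the red blood cell and choroid plexus markers in the results was not tested. B cell markers summed to 0.0088 to 0.014 in Sham, 0.015 to 0.053 in I/R, and 0.016 to 0.027 in DHI, and 0 of 2 tested were called in I/R versus Sham. Oligodendrocyte markers summed to 142 to 166 in Sham, 110 to 161 in I/R, and 153 to 198 in DHI, and none of the 6 passed between I/R and Sham (0 of 6). In DHI versus I/R, Mobp was called 2.16-fold higher (adjusted p = 0.196, limma).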
